A study of Mus musculus with 12 samples.

Results

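Nppb, Ankrd1, Acta1, Ccn2 and Ankrd23 are 5 genes known for their induction when the wall of the ventricle is stretched or overloaded. They were followed through messenger RNA and ribosome footprints of adult mouse left ventricle. They were picked by name, with earlier results of these libraries known, and every row whose transcript name, without its final hyphen and number, equals 1 of the 5 symbols was taken, which gave 5 of the 21669 rows in each count table. Left ventricular tissue came from wild-type (WT) mice and from mice lacking Rpl3l (Rpl3l-/-, KO), a gene that encodes a striated-muscle paralog of the ribosomal protein Rpl3. No treatment, age beyond adult, strain or sex is given in the labels used here, and neither is the way the Rpl3l allele was made. Each lysate with cycloheximide was used in 2 ways: RNase I digestion gave ribosome-protected fragments (RPF, footprints), and undigested lysate gave poly(A)-selected RNA. The 12 libraries formed 4 groups of 3 biological replicates: RNA WT, RNA KO, RPF WT and RPF KO.

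A ventricle under raised pressure or volume load switches on part of its fetal gene programme. Nppb encodes B-type natriuretic peptide, a secreted hormone that promotes sodium excretion and vessel relaxation. Ankrd1 (CARP) and Ankrd23 (DARP) encode muscle ankyrin repeat proteins that bind the N2A segment of titin in the sarcomere, and Ankrd1 is also found in the nucleus. Acta1 encodes skeletal alpha-actin, the fetal partner of the cardiac alpha-actin Actc1. Ccn2 (connective tissue growth factor) encodes a secreted matricellular protein and is a classic target of the mechanosensitive co-activators YAP and TAZ, which work through TEAD factors.

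TEAD factors bind the M-CAT element, whose core is CATTCC, and M-CAT elements have long been studied in load-responsive heart promoters. The promoters of 4 of the 5 genes are therefore shown, from RefSeq with coordinates of GRCm38.p6. Each runs from 250 bases before the RefSeq start site to 50 bases after it, 5′ to 3′ on the gene's own strand. Capitals mark CATTCC or its reverse complement GGAATG, searched on both strands. Ccn2 was not matched in the promoter table. Ankrd23 had 2 RefSeq starts, and the one shown is the start of the counted transcript.
Nppb, chr4:147985650-147985949, plus strand: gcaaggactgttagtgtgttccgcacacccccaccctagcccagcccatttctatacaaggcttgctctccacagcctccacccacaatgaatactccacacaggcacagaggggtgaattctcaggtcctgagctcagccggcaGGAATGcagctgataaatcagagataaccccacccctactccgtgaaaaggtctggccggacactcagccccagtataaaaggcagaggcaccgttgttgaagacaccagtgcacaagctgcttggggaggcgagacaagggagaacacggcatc
Ankrd1, chr19:36119795-36120094, minus strand: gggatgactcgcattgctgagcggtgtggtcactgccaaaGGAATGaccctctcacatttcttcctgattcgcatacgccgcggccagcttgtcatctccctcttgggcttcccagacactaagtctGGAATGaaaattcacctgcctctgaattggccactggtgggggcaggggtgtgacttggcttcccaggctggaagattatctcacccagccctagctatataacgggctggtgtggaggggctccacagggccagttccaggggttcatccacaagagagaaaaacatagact
Acta1, chr8:123894726-123895025, minus strand: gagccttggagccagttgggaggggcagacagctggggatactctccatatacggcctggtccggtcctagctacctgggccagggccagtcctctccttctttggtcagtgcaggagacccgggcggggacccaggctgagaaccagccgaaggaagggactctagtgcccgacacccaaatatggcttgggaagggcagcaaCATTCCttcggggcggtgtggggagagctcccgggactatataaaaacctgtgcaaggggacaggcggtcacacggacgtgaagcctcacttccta
Ankrd23, chr1:36535690-36535989, minus strand: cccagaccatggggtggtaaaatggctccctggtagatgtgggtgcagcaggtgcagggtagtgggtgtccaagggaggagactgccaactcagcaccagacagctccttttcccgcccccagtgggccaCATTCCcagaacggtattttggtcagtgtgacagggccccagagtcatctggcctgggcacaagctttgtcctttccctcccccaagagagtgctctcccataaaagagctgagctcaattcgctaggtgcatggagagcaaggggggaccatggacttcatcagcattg
All 4 windows held the M-CAT core. It began 105 bases before the start site of Nppb, 210 and 123 bases before that of Ankrd1, 46 bases before that of Acta1 and 120 bases before that of Ankrd23. The RefSeq starts of Nppb and Ankrd1 lie 112 and 255 bases downstream of the starts of the counted transcripts, so that these cores lie downstream of the counted starts. At the other RefSeq start of Ankrd23, the core in the window begins 36 bases after the start. Among 32851 promoters of the same length, 14.7% held the core at least 1 time and 1.36% held it 2 or more times. The Acta1 window also held a CArG box, the element bound by serum response factor, 73 bases before the start, and 1.63% of promoters held such a box. TATAAA lay 31 bases before the RefSeq start of Nppb and 7 bases before that of Acta1, and was found in 13.6% of promoters. The counted Acta1 transcript starts 24 bases downstream of its RefSeq start. The TATAAA of Nppb lies downstream of its counted start. No match overlapped one of another motif. These are matches of letters in a window, and no binding was measured in these samples.

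The counted transcripts are all protein coding in GENCODE M21 (GRCm38). Nppb-201 lies at chr4:147985788-147987205 on the plus strand with 3 exons, and Ankrd1-205 at chr19:36111965-36120099 on the minus strand with 9 exons. Acta1-201 spans chr8:123891769-123894751 on the minus strand with 7 exons. Ccn2-201 spans chr10:24595442-24598678 on the plus strand with 5 exons, and Ankrd23-201 spans chr1:36530534-36535739 on the minus strand with 9 exons. Of the 28-base windows of these transcripts, none of Nppb or Ankrd1 occurred in another gene, and 8 of 2371 of Ccn2 did. For Ankrd23, 85.5% of windows were identical in the overlapping gene Gm42417, which had 0 counts in all 12 libraries, so the split of reads between them is uncertain. For Acta1, 5.43% of windows were identical in other genes, and 16.6% lay within 2 mismatches of Actc1. Acta1 counts are therefore uncertain to the extent that reads of the far more abundant Actc1 were assigned to it.

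Totals were between 6635242 and 8459004 counts in the RNA libraries and between 3827862 and 7474602 in the RPF libraries. Mitochondrially encoded transcripts were 49.8% to 58.2% of an RNA library and 2.28% to 5.22% of an RPF library. Levels are given as CPM, counts scaled to a common library size within each assay, so that RNA and RPF values of a gene are not on a common scale. Mean Rpl3l mRNA was 377 ± 44.4 CPM over the WT and 44.0 ± 2.91 CPM over the KO hearts (SD, n = 3). Mean footprints were 229 ± 33.7 and 8.65 ± 4.19 CPM, in the direction of the labels. The ventricular cardiomyocyte markers were abundant in every library, with a summed mRNA level from 42206 to 59565 CPM over 8 genes, and none of them was at 0. RNA libraries WT 3, KO 1 and KO 3 stood apart from WT 1, WT 2 and KO 2 on the first principal component (47.9% of variance), and RPF WT 1 stood apart from the other RPF libraries (37.4%). In whole tissue, fewer cells of a type and less RNA per cell cannot be told apart.

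The 5 genes covered a wide range of abundance. Per kilobase of transcript, WT mRNA was 920 ± 236 CPM for Ankrd1, 179 ± 51.1 for Nppb, 168 ± 38.0 for Acta1, 3.22 ± 1.01 for Ankrd23 and 0.449 ± 0.482 for Ccn2 (SD, n = 3). Ankrd1 mRNA ranked 106 from the top of 8321 genes. The libraries of Nppb and Acta1 overlapped in this order, and those of the other neighbours did not. In KO, mRNA per kilobase was 529 ± 102 CPM for Ankrd1, 150 ± 75.9 for Acta1, 117 ± 21.6 for Nppb, 3.35 ± 0.522 for Ankrd23 and 0.606 ± 0.384 for Ccn2. Acta1 and Nppb again overlapped, and per kilobase of coding sequence Nppb stood above Acta1 there too. Footprints gave another order in both genotypes. WT footprints per kilobase of transcript were 741 ± 133 CPM for Ankrd1, 602 ± 313 for Acta1, 244 ± 53.1 for Nppb, 47.3 ± 10.4 for Ccn2 and 6.77 ± 1.80 for Ankrd23. Only Ankrd1 and Acta1 overlapped among these neighbours. In KO the same order held, at 517 ± 171, 459 ± 163, 178 ± 33.9, 53.4 ± 8.02 and 5.82 ± 1.75 CPM per kilobase, and again only Ankrd1 and Acta1 overlapped. Ccn2 was thus last of the 5 in mRNA and ahead of Ankrd23 in footprints.

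**Figure D1:**
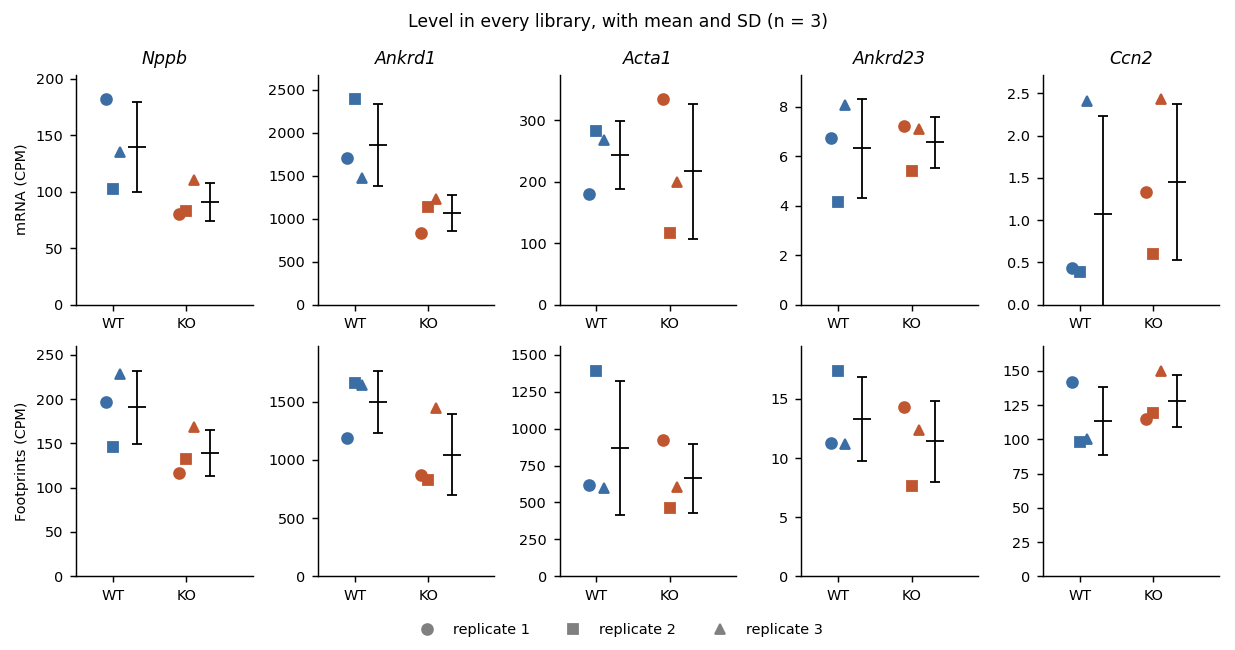
Level of each gene in every library, mRNA in the upper row and footprints in the lower row, in CPM on linear axes that start at 0. Points are libraries, with the shape giving the replicate number, and bars are mean ± SD (n = 3), cut at 0 for WT Ccn2 mRNA. The mRNA of Ankrd1 is the panel in which the WT range (1474 to 2392) and the KO range (837 to 1232) do not meet.

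The genotype comparison asks whether loss of Rpl3l goes with a different level of a transcript, of its footprints, or of translational efficiency (TE), the change in footprints beyond that in mRNA. Mean levels of Nppb and Ankrd1 were lower in KO in both assays, but only for Ankrd1 mRNA did the libraries of the genotypes not overlap. Acta1 and Ankrd23 overlapped widely. Ccn2 overlapped in both assays as well, with a higher mean in KO whose direction in mRNA was undetermined. No gene of the 5 passed the test. The test was edgeR's quasi-likelihood test with Benjamini-Hochberg adjustment over all genes at 0.05. It called 0 of the 5 in RNA, where the share of all 8379 genes called was 0.0119%, 0 of 5 in RPF (0.00897% of 11153 genes) and 0 of 5 in TE (0% of 8044 genes). The 1 gene called in RNA, and the 1 called in RPF, was Rpl3l itself (edgeR adjusted p = 8.2e-05 and 2.5e-07). At an unadjusted p under 0.05, 2 of the 5 passed in RNA (2.54% of all genes), 2 in RPF (5.96%) and 0 in TE (3.73%), and DESeq2 called 0 of 5 in each. All 5 passed the low-count filter in both assays. Without the low-count filter, edgeR called 60 genes in RPF, out of at most 21669 rows. Ankrd1 was the only member of the 5 among them. The genes were chosen with this contrast known, so these counts support nothing, and the differences of single genes are given as a description. The median log2 fold change of the 5, KO against WT, was -0.17 in RNA, -0.39 in RPF and -0.20 in TE. Over all genes tested it was -0.01 in RNA, 0.00 in RPF and 0.01 in TE.

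Nppb, the secreted hormone of the group, had mRNA levels of 182, 103 and 135 CPM in WT 1, 2 and 3 and 80.2, 82.7 and 111 CPM in KO 1, 2 and 3. The 2 lowest libraries were KO and the 2 highest WT, but KO 3 lay above WT 2. Its footprints were 197, 146 and 228 CPM in WT and 116, 133 and 168 CPM in KO. They gave the same picture, with KO 3 again above WT 2. On the log2 scale the genotype difference was -0.62 (SE 0.23) in mRNA and -0.46 (SE 0.18) in footprints, so that KO stood at 65.2% and 73.0% of WT. Leaving out 1 library moved the mRNA difference between -0.80 (without WT 2) and -0.38 (without WT 1), and the footprint difference to -0.30 without WT 3. The sign held in all 14 alternatives for mRNA and all 13 for footprints. The difference in TE was 0.18 (SE 0.32), and -0.03 without WT 1.

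Nppa encodes the related atrial natriuretic peptide and is also induced by load. Its mRNA stood at 985, 1230 and 888 CPM in the WT hearts and at 954, 1865 and 1927 CPM in the KO hearts. It was thus higher in KO 2 and KO 3 than in any WT library, the opposite side from Nppb. Nppa footprints were 1475, 1969 and 1407 CPM in WT and 1466, 1756 and 1993 CPM in KO, a log2 difference of 0.10 (SE 0.14) with wide overlap. The Nppb share of the mRNA counts of both hormones was 15.6%, 7.70% and 13.2% in WT and 7.75%, 4.25% and 5.43% in KO. The widest Wilson 95% interval, that of WT 1, ran from 14.8% to 16.4% and covers counting error only. The groups overlapped, with KO 1 just above WT 2. Among footprints, the share averaged 10.9% ± 3.61 over WT and 7.39% ± 0.37 over KO hearts (SD, n = 3), with WT 2 (6.92%) below all KO libraries. Of the atrial cardiomyocyte markers, 5 of 5 tested had a log2 fold change above 0 in RNA (median 0.61) and 5 of 5 in RPF (median 0.33), and 0 were called. Their summed mRNA level ran from 1682 to 2617 CPM in WT and from 2055 to 4139 CPM in KO. None of the list's 6 genes was at 0 in a whole group, and the list holds Nppa itself. The part of atrial tissue in the Nppb share was not tested.

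Ccn2, the secreted matrix protein, was read almost wholly from footprints. Its mRNA gave 3, 3 and 23 counts in WT 1, 2 and 3 and 9, 4 and 24 counts in KO 1, 2 and 3, or 0.430, 0.390 and 2.41 CPM and 1.33, 0.599 and 2.43 CPM. Footprints gave 691, 371 and 474 counts in WT and 853, 811 and 716 in KO, or 142, 97.8 and 100 CPM and 115, 119 and 150 CPM. High and low libraries were found in both genotypes. The footprint difference was 0.17 (SE 0.17) on the log2 scale, and it ran from 0.05 without KO 3 to 0.37 without WT 1. For mRNA it was 0.40 (SE 0.69), and it ran from -0.24 without KO 3 to 1.86 without WT 3, which leaves its direction undetermined. The TE difference was -0.21 (SE 0.64) and reached -1.77 without WT 3, while it was 0.34 without KO 3.

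The mRNA of Ccn2 followed the split of the RNA libraries rather than the genotype. It was between 9 and 24 counts in WT 3, KO 1 and KO 3 and between 3 and 4 counts in WT 1, WT 2 and KO 2. Only WT 3, KO 1 and KO 3 brought Ccn2 past the low-count filter. Its gap between the sides was thus favoured by the filter and is given as a description. Ankrd23 was the other gene of the 5 whose libraries did not meet between these sides, at 7.09 to 8.07 CPM against 4.16 to 6.74 CPM. Of all genes tested, 36.1% had libraries that did not meet between these sides, and 17.8% were higher in every library of the first side. The sides were themselves drawn from these RNA values. With the side as a factor in the fit, the genotype difference in mRNA was -0.13 for Ccn2, -0.10 for Ankrd23, -0.49 for Acta1, -0.63 for Nppb and -0.68 for Ankrd1. The labels used here name no batch for these libraries.

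Ankrd1, the titin-bound ankyrin repeat protein, was the most abundant of the 5 in both assays. WT hearts 1, 2 and 3 had 1709, 2392 and 1474 CPM of its mRNA and KO hearts 837, 1136 and 1232 CPM. It was the only member of the 5 with every KO library below every WT library in mRNA, which held for 3.19% of all genes tested. Its footprints were 1186, 1660 and 1643 CPM in WT and 867, 824 and 1443 CPM in KO. KO 3 exceeded WT 1 there, so 0 of the 5 genes were apart in footprints, against 5.77% of all genes with every KO library below every WT library. On the log2 scale the difference was -0.80 (SE 0.23) in mRNA and -0.52 (SE 0.19) in footprints, which placed KO at 57.5% and 69.8% of WT. The range with 1 library left out was -0.94 to -0.58 in mRNA and -0.82 to -0.37 in footprints, and the sign held in every alternative run. The lowest footprint value was found without KO 3. The TE difference was 0.31 (SE 0.35).

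Ankrd23, from the same ankyrin repeat family, was far less abundant. Its mRNA was 6.74, 4.16 and 8.07 CPM in WT and 7.24, 5.39 and 7.09 CPM in KO, from 32 to 77 counts. Footprints were 11.3, 17.4 and 11.2 CPM in WT and 14.3, 7.62 and 12.4 CPM in KO, from 52 to 106 counts. WT 2 had the lowest mRNA and the highest footprints, KO 2 had the lowest footprints, and the genotypes overlapped in each assay. The log2 differences were 0.05 (SE 0.27) in mRNA and -0.21 (SE 0.33) in footprints, and each changed sign when WT 2 was left out (to -0.17 and 0.02). The mRNA difference also changed sign without KO 1 and without KO 3, and the footprint difference without KO 2, each to a value closer to 0 than its SE. In counts, Ankrd1 made up 99.6% ± 0.19 of Ankrd1 and Ankrd23 together in WT mRNA and 99.4% ± 0.20 in KO mRNA (SD, n = 3). The third family member, Ankrd2, a form of slow skeletal muscle, was nearly absent: Ankrd1 held over 99.9% of the counts of that pair in each library.

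Acta1, the fetal actin, varied more between hearts than between genotypes. Its mRNA was 181, 283 and 267 CPM in WT and 334, 117 and 199 CPM in KO. The highest and the lowest library were both KO. Footprints were 621, 1393 and 596 CPM in WT and 923, 464 and 604 CPM in KO. Hearts WT 2 and KO 1 were the 2 highest, and KO 2 the lowest, in both assays. The log2 difference was -0.17 (SE 0.34) in mRNA, 0.13 without KO 2 and -0.63 without KO 1. In footprints it was -0.39 (SE 0.28), 0.13 without WT 2 and -0.70 without KO 1. Within genotypes the SD of log2 CPM was 0.59 in RNA and 0.60 in RPF, above 94.1% and 96.1% of genes averaging 50 or more counts, whose median SD was 0.24 and 0.25. The other members with that mean lay between 54.4% and 83.7% of genes.

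Actc1, the adult cardiac actin, gave the reference for Acta1. In counts, Acta1 was 7.18% ± 1.81 of Acta1 and Actc1 together in WT mRNA and 6.05% ± 2.11 in KO mRNA (SD, n = 3). In footprints the share was 2.87% ± 1.33 in WT and 2.15% ± 0.75 in KO. Both genotypes overlapped in each assay. The lower share in footprints restates, from the same counts, that Actc1 had more footprints for its mRNA than Acta1. Relative to the median gene, Actc1 stood 2.81-fold above in WT and 2.83-fold above in KO, and Acta1 at 1.09-fold and 0.934-fold. Of 8 skeletal muscle markers, 3 passed the low-count filter in RNA. Ckm, which heart also expresses, was at 3114 ± 492 CPM in WT mRNA, and Tnni2 at 6.64 ± 1.98 CPM. Myh2 was at 0 in all WT and Myh4 in all KO mRNA libraries.

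**Figure D2:**
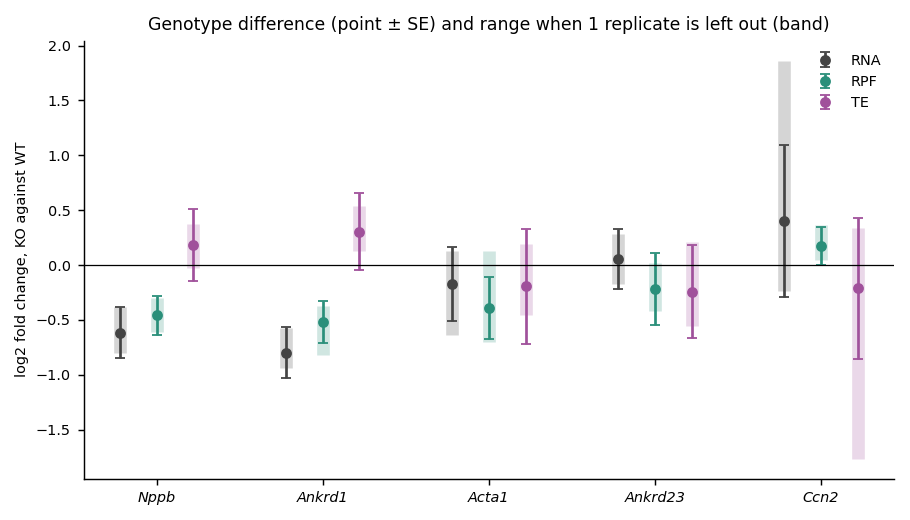
Difference between KO and WT for each gene in mRNA (RNA), footprints (RPF) and translational efficiency (TE), as log2 fold change. Points with bars are the estimate ± SE, and bands give the lowest and highest estimate when 1 replicate is left out. Nppb and Ankrd1 stay below 0 in RNA and RPF, while the bands of Acta1 and Ankrd23 cross 0 and that of Ccn2 in RNA runs from -0.24 to 1.86.

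Footprints and mRNA of the same genotype and number were set against each other heart by heart. The order of hearts for Nppb was the same in both assays except that WT 1 and WT 3 changed places, with KO 2 and KO 1 lowest in both. For Ankrd1, WT 2 was highest and KO 1 and KO 2 were the 2 lowest in both assays. Ccn2 had KO 3 at the top and WT 2 at the bottom in both, but the hearts between them stood in reverse order. The lowest Ccn2 mRNA values, those of WT 1 and WT 2, rested on 3 counts each. For Ankrd23, WT 2 was lowest in mRNA and highest in footprints.

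**Figure D3:**
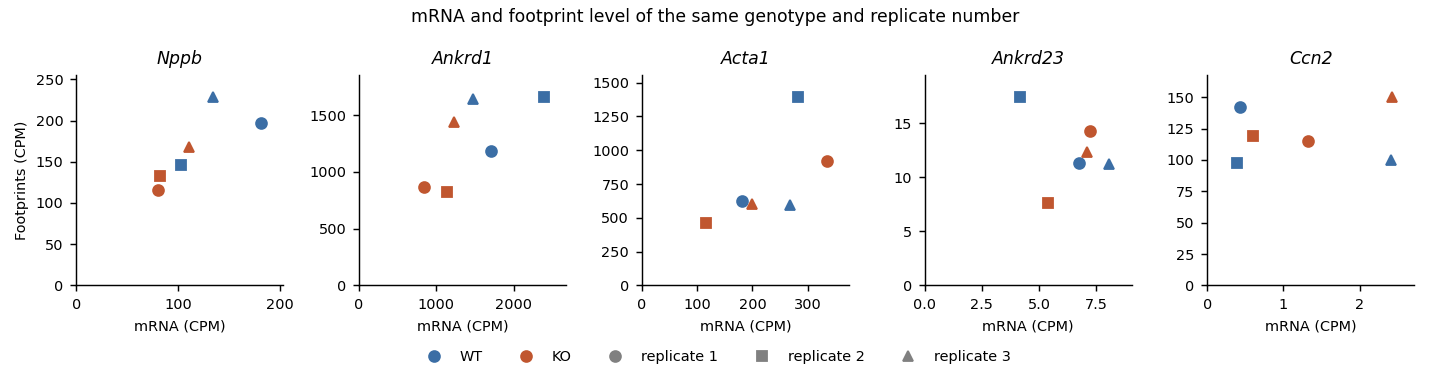
Footprint level against mRNA level in CPM, 1 panel per gene, on linear axes that start at 0. Each point is a genotype and replicate number, with colour for genotype and shape for number. The points of Nppb run from lower left to upper right, Acta1 has WT 2 and KO 1 at the upper right, and Ankrd23 has WT 2 alone at the upper left.

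How many footprints a gene had for its mRNA spread the 5 genes over a wider range than the genotype differences did. This ratio is given relative to the median gene, because the scaling between assays is arbitrary: scaling within each assay shifted the median of all genes by 1.73 in WT and 1.70 in KO on the log2 scale. In WT, Ccn2 stood 29.6-fold above the median gene, at 4.89 on the log2 scale, and 54 of 8044 genes stood higher. The 8044 genes are those that passed the low-count filter in both assays. Genes with many footprints but too little mRNA for that filter were not ranked. An example is Fosl2, with 0.217 CPM of mRNA and 100 CPM of footprints in WT. The rank of Ccn2, whose mRNA was near the filter, depends on this cut. Ankrd1 was 4.07-fold below the median gene (log2 -2.03) and Nppb stood at 0.417 of it (log2 -1.26). Acta1 (0.13) and Ankrd23 (-0.65) lay nearer to it. KO hearts gave nearly the same values, at 4.65 for Ccn2, -1.75 for Ankrd1, -1.11 for Nppb, -0.10 for Acta1 and -0.92 for Ankrd23. The interaction that tests the difference between genotypes is the TE value given for each gene above, and 0 of 5 passed.

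Against a ratio of 1 on the scaling of all 12 libraries, edgeR's quasi-likelihood test called 3 of 5 genes in WT, where 73.8% of all genes were called. Ccn2 was higher (adjusted p = 3.4e-08), and Nppb (adjusted p = 1.7e-04) and Ankrd1 (adjusted p = 2.8e-06) were lower. In KO it called 4 of 5, with a background of 72.6%: the same 3 genes and Ankrd23, lower with an adjusted p of 0.018. The call of Ankrd23 was lost without KO 2, without KO 3 and with a filter at a mean of 50 counts. These calls also depend on how the assays are scaled to each other: scaled within each assay, Ankrd1 was no longer called (edgeR adjusted p = 0.37 in WT and 0.90 in KO), and Nppb, Ankrd23 and Acta1 lay on the higher side in both genotypes. Both counts are near their backgrounds. Relative to the median gene, alternatives moved Ccn2 in WT between 4.31 and 6.41, Ankrd1 between -2.50 and -1.43 and Nppb between -1.75 and -0.66. The filter at a mean of 50 counts left Ccn2 out, so its range does not cover that setting.

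Per heart, the ratio of Ccn2 over the median gene was 98.5-fold in WT 1 (exact 95% interval 33.6 to 479, counting error only), 75.7-fold in WT 2 (25.7 to 369) and 12.9-fold in WT 3 (8.48 to 20.5). In KO 1, 2 and 3 it was 26.5-fold (13.9 to 58.1), 59.5-fold (23.1 to 219) and 19.1-fold (12.8 to 30.1). The lower bound stood above 8-fold in all 6 hearts. The hearts with 3 or 4 mRNA counts gave the highest ratios and the widest intervals. Nppb ranged from 0.323 to 0.524 of the median gene and Ankrd1 from 0.207 to 0.363 over the 6 hearts. Acta1 lay between 0.690 (WT 3) and 1.49 (WT 2), and Ankrd23 between 0.424 (KO 2) and 1.26 (WT 2).

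**Figure D4:**
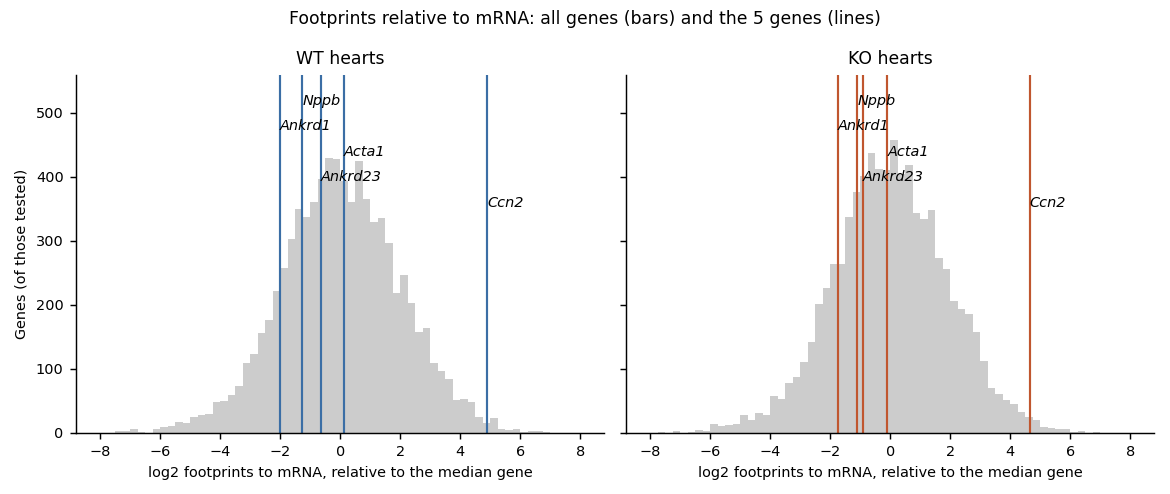
Footprints relative to mRNA, as log2 distance from the median gene, in WT hearts (left) and KO hearts (right). Grey bars count the 8044 genes tested in bins, and vertical lines mark the 5 genes. Ccn2 lies in the right tail at 4.89 and 4.65, and Ankrd1 and Nppb lie on the left side of the distribution in both genotypes.

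The Ccn2 paralog Ccn1 (CYR61), also a secreted YAP target, had 16 to 45 mRNA counts and 431 to 683 footprint counts per library. It stood at 3.34 in WT and 2.74 in KO on the log2 scale relative to the median gene. Of the YAP and TEAD targets tested, 9 of 10 lay above the median gene in each genotype (median 2.06 in WT and 2.14 in KO). Of the fibroblast markers, 7 of 7 did (median 2.12 and 2.49), and of the leukocyte markers 5 of 5 (1.76 and 1.57). Of the ventricular cardiomyocyte markers, 3 of 8 did in WT and 4 of 8 in KO (-0.51 and -0.39). The other actins lay above it in 4 of 4 genes (1.35 and 1.36), and the titin partners (1.44 and 1.01) and the endothelial markers (1.11 and 1.00) in 4 of 7 each. Secreted proteins lay on both sides: besides Nppb, Nppa stood at -1.07 in WT and -1.58 in KO. The region counted and the use of strand are not given in the sources used here, and a count limited to part of the transcript would move this ratio.

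By Pearson's r of log2 CPM over the 12 libraries, centred within each assay, the genes most like each member were found among 3889 genes that averaged 50 or more counts in both assays. Nppb was most like Rgl1 (r = 0.87), Unc93b1 (0.85) and Nat9 (0.81). Ankrd1 was most like Naxd (0.85), Tmem205 (0.85) and Xrcc6 (0.82). Acta1 was most like Trabd (0.90), Pfkl (0.87) and Rrp12 (0.86). For Ccn2 they were Rbbp4 (0.96), Anxa6 (0.94) and Il10rb (0.92), and for Ankrd23 they were C1qbp (0.88), Adprhl1 (0.86) and Nol3 (0.86). No member was among the nearest genes of another. Between members the highest values were 0.59 for Nppb and Ankrd1 and 0.58 for Acta1 and Ankrd23, and the lowest was -0.38 for Ankrd1 and Ccn2. The libraries share hearts, depth and the RNA split, so these values are descriptions.

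The wider load response was read from 8 lists of 99 further genes. Of the 58 tested in RNA, 0 were called by edgeR, 1 had an unadjusted p under 0.05, and DESeq2 called 0. In RPF, 0 of 90 were called, 4 had an unadjusted p under 0.05, and DESeq2 called 0. In TE, 0 of 58 were called, 1 had an unadjusted p under 0.05, and DESeq2 called 0. In RNA, 20 of 58 genes lay below 0 (median log2 fold change 0.14), against 50.9% of all genes tested. In RPF, 46 of 90 did (median -0.01), against 49.8% of all genes tested.

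Other load-induced and fetal genes, among them Nppa and the Z-disc stretch-sensing protein Csrp3, had a median difference of -0.04 in RNA (10 of 16 tested) and 0.06 in RPF (14 of 16). Mean Csrp3 mRNA was 824 ± 62.9 CPM over the WT and 754 ± 57.4 CPM over the KO hearts (SD, n = 3). Its footprints were 1934 ± 35.7 CPM in WT and 1647 ± 114 CPM in KO. The log2 difference in footprints was -0.23 (SE 0.11) and was not called. Every KO library lay below every WT library there, which held for 5.77% of all genes tested in RPF. Immediate early genes, the first to respond to acute stretch, had medians of 0.29 in RNA (6 of 13) and 0.09 in RPF (9 of 13), with Ier2 mRNA at 5.43 ± 1.98 CPM in WT and 6.89 ± 0.600 CPM in KO. Processing enzymes and receptors of the natriuretic peptides stood at 0.13 (5 of 9) and 0.01 (9 of 9). Npr1, the receptor that natriuretic peptides activate, had 7.71 ± 1.02 CPM of mRNA in WT and 9.25 ± 0.894 CPM in KO. The other actins stood at 0.06 (4 of 5) and 0.05 (5 of 5), with Actc1 mRNA at 3166 ± 235 CPM in WT and 3246 ± 708 CPM in KO.

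Ankyrin repeat and titin partners had medians of -0.05 in RNA (7 of 8) and -0.23 in RPF (7 of 8), where 5 of 7 lay below 0. Tcap, which caps titin at the Z-disc, had 1130 ± 265 CPM of mRNA in WT and 1069 ± 465 CPM in KO. YAP and TEAD targets stood at 0.03 (10 of 20) and -0.14 (17 of 20), with Ccn1 footprints at 115 ± 13.7 CPM in WT and 105 ± 21.7 CPM in KO. Transcription factors of the load response stood at 0.14 (12 of 16) and -0.05 (16 of 16). Mef2c, a cardiac myocyte factor, had 52.2 ± 22.0 CPM of mRNA in WT and 38.9 ± 16.6 CPM in KO. TGF-beta and matrix genes stood at 0.24 (7 of 17) and 0.05 (17 of 17), with Col3a1 footprints at 693 ± 44.9 CPM in WT and 740 ± 101 CPM in KO. In each gene of these lists with means printed above, the difference between means was smaller than the larger of the 2 SDs, except for Csrp3 and Npr1. There it was larger, as it was for Nppa mRNA (1034 ± 176 CPM in WT and 1582 ± 544 CPM in KO).

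**Figure D5:**
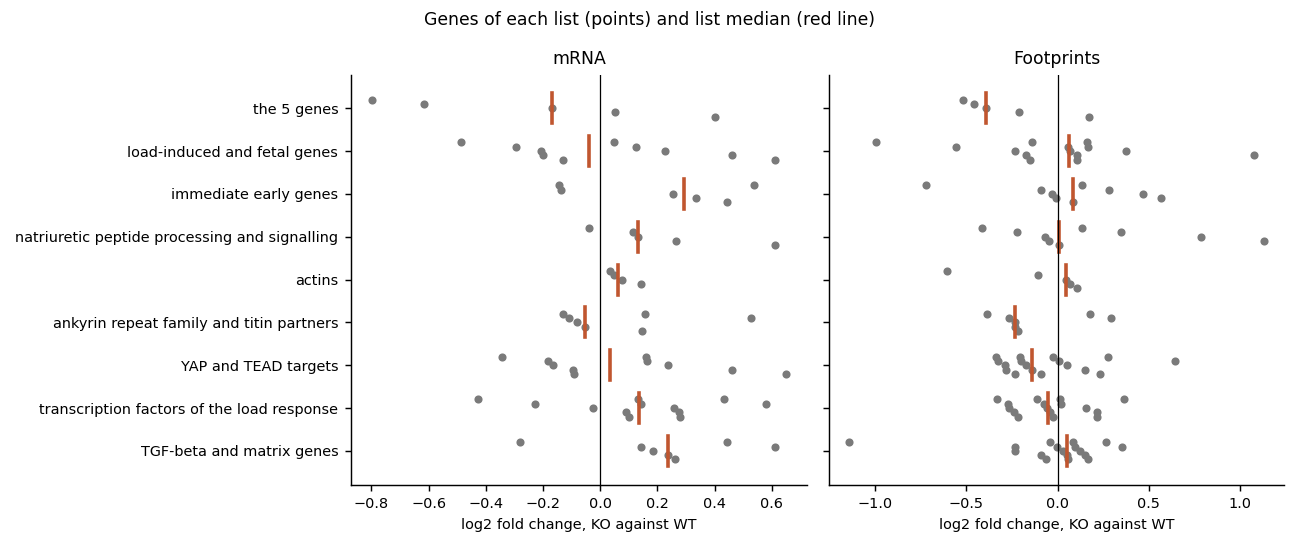
Log2 fold change of KO against WT for every tested gene of the 5 and of each of the 8 other lists, in mRNA (left) and footprints (right). Points are genes, red lines are list medians, and the black line is 0. The median of the 5 genes is -0.17 in mRNA and -0.39 in footprints, and the other medians lie between -0.05 and 0.29 and between -0.23 and 0.09.

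None of the marker genes of heart cell types passed the test between genotypes. Ventricular cardiomyocyte markers had a median of -0.15 in RNA, with 8 of 8 below 0, and -0.03 in RPF. Fibroblast markers stood at 0.09 and 0.12, endothelial markers at 0.27 and 0.07, and leukocyte markers at 0.10 and -0.12. The atrial list given above had the highest medians, 0.61 and 0.33. Smooth muscle markers, at -0.01 in RNA, were at -0.42 in RPF with 4 of 5 below 0. Of the 39 marker genes tested in RNA and 40 in RPF, 0 were called by edgeR, 3 and 7 had an unadjusted p under 0.05, against 2.54% and 5.96% of all genes, and DESeq2 called 0 in each. The atrial list held 3 of those in RNA and 3 in RPF. The part of any of these cell types in the differences of the 5 genes was not tested.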

How the data were processed

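Values are raw counts per transcript name, deposited by the authors as whole numbers. Per the submitters' processing notes, cutadapt 1.18 and Bowtie2 2.4.2 were used. The counting program, genome build, counted region and use of strand are not given in the sources used here. Of the 21669 names, 21425 matched GENCODE M21.

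Tests used edgeR 4.0.16 with limma 3.58.1 in R 4.3.3: filterByExpr (minimum count 10), TMM scaling, quasi-likelihood F test, Benjamini-Hochberg adjustment over all genes, threshold 0.05. RNA and RPF were fitted on 6 libraries each, and TE as the assay by genotype interaction over 12 libraries, whose assay contrasts gave footprints against RNA. An SE is the log2 fold change over the root of F. CPM used TMM-scaled sizes, with 0.5 added before log2. Fits were tested on simulated counts. Figures used Python 3.11.15. Alternatives were DESeq2 1.42.0, median-of-ratios (RLE) scaling, other filters, scaling within each assay, a replicate block, all 12 libraries, leaving out mitochondrial genes with the 10 largest, a factor for the RNA split, and each replicate left out.

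The members and lists were chosen with earlier results of these data known. Named genes were the 5, Rpl3l, from each list any called gene and the 2 with most WT mRNA per kilobase, and 3 nearest genes per member. By title numbers, RNA and RPF libraries sharing genotype and number deviated together (correlations 0.10 to 0.19, all 6 best with their own number). They were taken as pairs in the values per heart and in the replicate block over 12 libraries. The main fits of TE and of footprints against RNA held only the 4 group means, without a term for pairs. Replicates are separate samples, and whether each number is 1 animal is not stated. Shared-window searches used 28 bases.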

Additional observations from a re-analysis of the deposited data

How the results depend on the processing

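Ccn2 mRNA rests on 3 to 24 counts a library, so counting error is large there, and its spread over libraries also follows the RNA split. In RNA, 1 gene was called, 4 with no filter and 6 with the factor for the RNA split. That factor also called 2 genes of the other lists, Myl4 (0.85) and Myl7 (0.72). It was drawn from the same RNA libraries to which it was then fitted, so these calls are a description. In RPF, 1 gene was called, 5 by DESeq2, 60 with no filter, 4 with the replicate block, and from 1 to 2 with 1 replicate left out. With no filter, RPF called 1 of the 5, Ankrd1 (-0.51), and 1 gene of the other lists, Fosl2 (-0.71). In TE, DESeq2 called 1 gene against 0. Footprints against RNA called 5940 genes in WT and 5842 in KO, and 2954 and 2912 among genes averaging 50 or more counts. That filter leaves fewer genes to test, with 2 of the 5 called in KO against 4. Ccn2 did not pass it and was not tested there.

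Scaling within each assay turned the raw log2 ratio of footprints to RNA, by construction of the scale, in WT for Nppb (0.52) and Ankrd23 (1.13) and in KO for Nppb (0.67), Ankrd1 (0.035), Acta1 (1.69) and Ankrd23 (0.86). Same-numbered libraries of the 2 genotypes share only a number: their deviations correlated at -0.37, 0.59 and 0.59 in RNA and 0.04, -0.01 and -0.06 in RPF, and not every library matched its own number best. The replicate block called 0 of the 5 in RNA, RPF and TE. The cause of the other changes was not tested. The split factor was not run in RPF, where 1 library stands alone.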

Other observations

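The genes below were picked with their values in view. The share of the fetal myosin heavy chain Myh7 overlapped between genotypes. It was 1.22% ± 0.26 of Myh6 and Myh7 counts in WT mRNA and 1.24% ± 0.43 in KO mRNA (SD, n = 3), and 0.204% ± 0.036 and 0.181% ± 0.035 in footprints. Corin, the protease that activates natriuretic peptide precursors, stood 16.0-fold above the median gene in footprints relative to mRNA in WT and 16.5-fold in KO. Between genotypes it differed by -0.04 (SE 0.20) in mRNA and 0.01 (SE 0.13) in footprints on the log2 scale. Yap1, the co-activator upstream of Ccn2 and Ccn1, stood 26.2-fold above the median gene in WT and 16.7-fold in KO, with 1.03 CPM of mRNA and 91.6 CPM of footprints in WT. Within the load list, the 2 Xin actin-binding proteins of the intercalated disc lay at opposite ends: Xirp1 at 54.9-fold and Xirp2 at 0.080-fold of the median gene in WT, and 41.4-fold and 0.120-fold in KO. Fhl2, a LIM protein that binds titin, had footprints of 1267 CPM in WT and 1643 CPM in KO, a log2 difference of 0.37 (SE 0.12) that did not pass adjustment (edgeR adjusted p = 0.83).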
